A study of Canis lupus familiaris with 6 samples.

Results

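Fatty acid synthesis and desaturation was followed through 10 genes: ACLY, ACACA, FASN, SCD, ELOVL1, ELOVL5, ELOVL6, FADS1, FADS2 and SREBF1. They were taken by exact gene name from the deposited per-library tables, and all 10 were found among 29822 gene rows and passed the filter on low counts. RNA came from CMM10, a canine malignant melanoma cell line, in 3 libraries of cells kept under hypoxia and 3 of cells kept under normoxia. All libraries come from this 1 line. Neither the oxygen level nor the duration of hypoxia is in the labels. Nothing there says that replicates were separate cultures, so the p-values measure the spread between these libraries, which may be technical.

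Cells make fatty acids from citrate that leaves the mitochondria. ATP citrate lyase (ACLY) splits it into acetyl-CoA, acetyl-CoA carboxylase (ACACA) makes malonyl-CoA, and fatty acid synthase (FASN) joins these units to palmitate. Elongases of the ELOVL family lengthen the chain, and the desaturases SCD, FADS1 and FADS2 insert double bonds in reactions that use molecular oxygen and electrons passed on by cytochrome b5. The transcription factor SREBP-1, encoded by SREBF1, activates genes along the whole route.

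The libraries held 23196647 to 28804337 gene reads, with each hypoxia library deeper than each normoxia library, and the class deposited as intron reads made up 23.6% to 25.2% of gene reads. In all 29822 rows of each library this class equals gene reads minus exon reads. It also held 6.37% to 7.60% of the reads of gene models that have no intron, so it counts reads not assigned to exons and is called intron reads below only as a label. Levels per gene are given as TPM, the deposited expression values scaled by length to a sum of 1000000 in each library. Of the melanocyte markers, MITF (21.9 to 25.4 TPM), SOX10 (49.5 to 79.6 TPM) and DCT (42.1 to 56.5 TPM) were present in all libraries. PMEL (1.31 to 2.43 TPM) and MLANA (0.44 to 3.00 TPM) were low, TYRP1 reached 0.063 TPM at most, and TYR was at 0 TPM throughout. Among markers of other cell types, EPCAM (136.5 to 166.1 TPM) and COL1A1 (116.0 to 147.7 TPM) were high, while PTPRC, of leukocytes, reached 0.10 TPM and PECAM1, of endothelium, 0.059 TPM at most. VWF, also of endothelium, was at 0.62 to 1.81 TPM and rose by 2.72-fold. CD68 and PDGFRB reached 0.99 and 0.78 TPM. The summed level of 7 melanocyte markers was 135.1 to 148.4 TPM under hypoxia and 128.7 to 145.5 TPM under normoxia, and that of 7 other markers 287.9 to 296.7 and 276.2 to 294.6 TPM. Of the 5 tested genes in each list, 1 melanocyte marker rose (SOX10) and 1 fell (DCT), and 2 others rose (COL1A1 and VWF) and 1 fell (EPCAM). Their part in the results below was not tested.

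Under hypoxia the desaturase SCD rose most of the 10 genes, by 2.08-fold, followed by ACLY (1.42-fold), FADS2 (1.30-fold), ELOVL1 (1.23-fold) and FASN (1.17-fold). ELOVL5 was also called higher, by 1.06-fold. FADS1 fell to 0.81 of its normoxia level, ELOVL6 to 0.93 and ACACA to 0.94, and SREBF1 did not pass the test. Thus 6 of 10 genes were called higher and 3 lower by edgeR's quasi-likelihood test at a Benjamini-Hochberg adjusted p below 0.05. Of all 15397 genes tested, 49.0% were called, 24.5% higher and 24.4% lower. Scaled by library size alone, 38.8% of all calls were higher, against 50.1% with the TMM factors used here, and ELOVL5 was then not called and SREBF1 changed sign. The median log2 change of the 10 genes was 0.16, and that of all tested genes 0.00. With TMM scaling, libraries of the conditions did not overlap for any of the 10 genes (7 higher and 3 lower), which was the case for 55.3% of all tested genes. Scaled by library size alone, those of SREBF1 and ELOVL5 overlapped. In bulk RNA, a change in the share of expressing cells cannot be told apart from a change in RNA per cell.

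**Figure D1:**
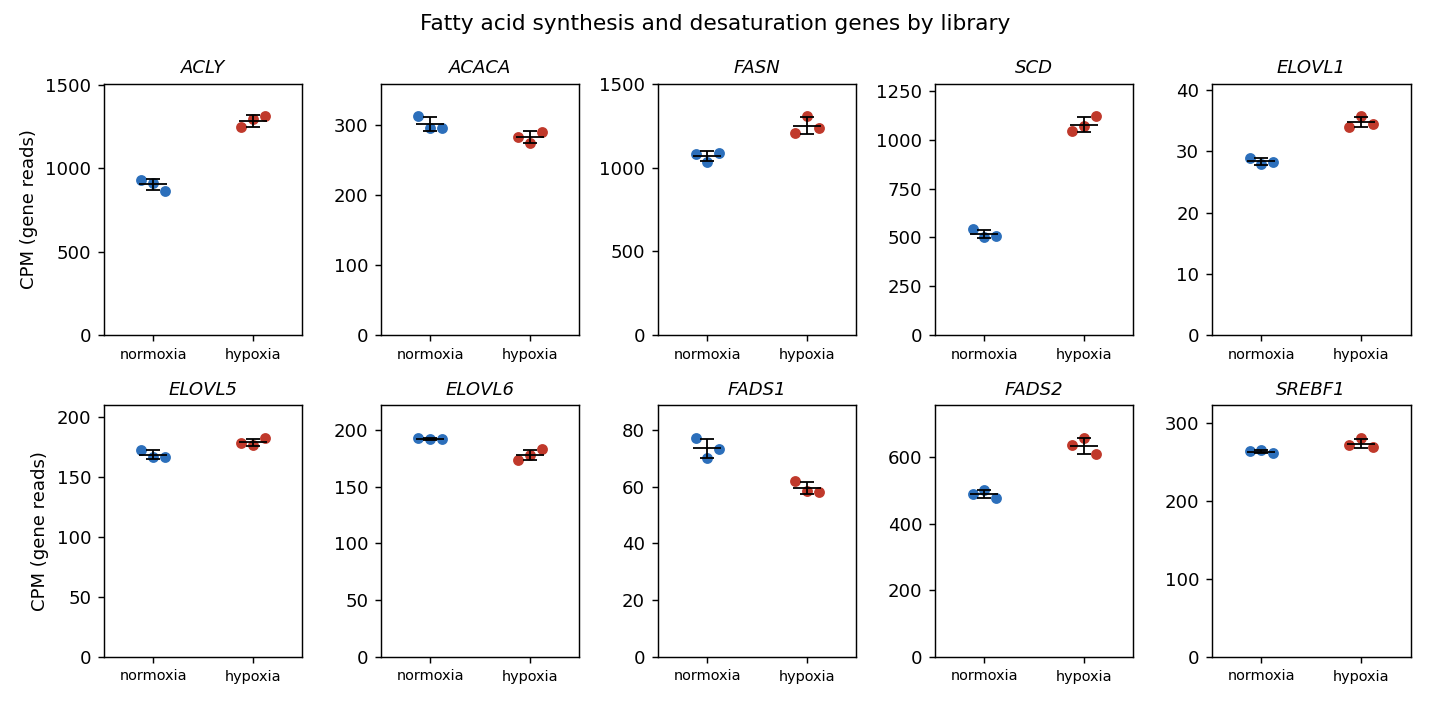
Gene reads per 1000000 reads of the library, after TMM scaling of library size (CPM, vertical axes from 0), for each of the 10 genes. Libraries are 3 of normoxia (blue) and 3 of hypoxia (red), with the mean and SD in black. SCD lies between 1046 and 1120.1 CPM under hypoxia and between 505 and 543 CPM under normoxia, and the changes of ACACA, ELOVL5, ELOVL6 and SREBF1 are small beside their levels.

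To compare levels between genes, the deposited TPM values were used, which are scaled by exon length. Under normoxia FADS2 was highest, at 496.8 to 514.9 TPM. ACLY (471.4 to 494.6 TPM) and SCD (463.4 to 495.6 TPM) followed and overlapped each other. FASN (270.4 to 296.4 TPM), ELOVL5 (232.3 to 236.1 TPM), ELOVL6 (165.6 to 172.8 TPM) and SREBF1 (139.3 to 142.9 TPM) came next, without overlap between neighbours. FADS1 (97.1 to 111.9 TPM), ACACA (61.6 to 69.2 TPM) and ELOVL1 (37.3 to 39.3 TPM) were lowest, again without overlap. Under hypoxia SCD stood first, at 942 to 1031 TPM, and ACLY (647 to 693 TPM) and FADS2 (622 to 676 TPM) overlapped each other below it. The order of the other 7 genes was the same in both conditions. The 10 genes together made up 2465 to 2541 TPM under normoxia and 3281 to 3423 TPM under hypoxia.

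**Figure D2:**
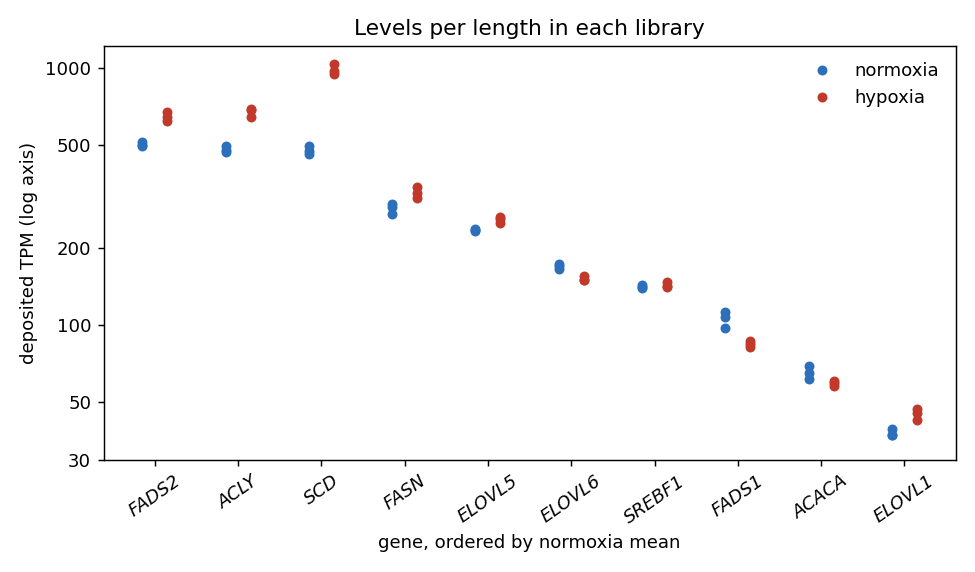
Deposited TPM of the 10 genes (log axis) in each normoxia (blue) and hypoxia (red) library, ordered by their normoxia mean. SCD moves from the third to the first place, at 942 to 1031 TPM, while the 7 genes from FASN down keep their order.

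At the entry to the pathway is ACLY, on chromosome 9 (20929614 to 20973663, CanFam3.1). It was at 1246, 1293 and 1311 CPM in the hypoxia libraries and at 932, 911 and 866 CPM in the normoxia libraries. CPM are gene reads per 1000000 after TMM scaling of library size, given here and below in the order of replicates 1 to 3. Every hypoxia library lay above every normoxia library, with means of 1283 ± 33.8 and 903 ± 33.8 CPM (SD, n = 3 each). The log2 change was 0.51 ± 0.034 (SE, adjusted p = 3.95e-14, edgeR), and 14.0% of all tested genes had a larger one. ACLY rose by 0.52 in exon reads, by 0.52 in reads that span an exon-exon junction and by 0.49 in intron reads.

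ACACA, on the same chromosome (36905293 to 37187892), was at 283, 274 and 290.0 CPM under hypoxia and 311, 294 and 296 CPM under normoxia. The libraries separated by a narrow margin, and the log2 change was -0.09 ± 0.035 (adjusted p = 0.0328, edgeR). The call was lost without hypoxia replicate 1 (adjusted p = 0.0814), without hypoxia replicate 2 (0.159) and without normoxia replicate 1 (0.208). In intron reads ACACA changed by -0.02 (adjusted p = 0.823, edgeR) and in exon reads by -0.11 (adjusted p = 0.0231, edgeR). Its model holds that of C9H17orf78 on the other strand, which had 3 reads in all 6 libraries.

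FASN, also on chromosome 9 (232963 to 249092), was at 1211, 1308 and 1239 CPM under hypoxia and at 1085, 1036 and 1090.3 CPM under normoxia. The lowest hypoxia library was above the highest normoxia library, and the means were 1253 ± 49.8 and 1070.4 ± 29.95 CPM. The log2 change was 0.23 ± 0.034 (adjusted p = 1.30e-06, edgeR), smaller than that of ACLY, and 27.7% of all tested genes had a larger one. FASN rose in exon reads (0.24), exon-exon reads (0.25) and intron reads (0.22).

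SCD, on chromosome 28 (13113006 to 13125801), encodes the stearoyl-CoA desaturase, which makes monounsaturated from saturated fatty acids. It was at 1046, 1069 and 1120.1 CPM under hypoxia and at 543, 505 and 507 CPM under normoxia. The distance between the conditions was large beside the spread within them, with means of 1079 ± 37.7 and 518 ± 21.3 CPM. The log2 change was 1.06 ± 0.035 (adjusted p = 4.02e-22, edgeR), and 4.74% of all tested genes had a larger one. The change was 1.07 in exon reads, 1.05 in exon-exon reads and 1.05 in intron reads, and intron reads were 26.6% ± 0.29 of SCD gene reads under hypoxia and 27.0% ± 0.78 under normoxia. No other gene model overlaps SCD, and all of its reads were unique.

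The other desaturases are neighbours on chromosome 18 and moved in opposite directions. FADS2, the delta-6 desaturase that starts the route to long polyunsaturated fatty acids, lies on the minus strand (54553366 to 54659654). FADS1, the delta-5 desaturase that acts later in the same route, lies on the plus strand (54659406 to 54670623). Their models share 249 bases at their facing ends. FADS2 was at 638, 658 and 609 CPM under hypoxia and 488, 502 and 477 CPM under normoxia, a log2 change of 0.38 ± 0.035 (adjusted p = 7.81e-11, edgeR). FADS1 was at 61.9, 58.3 and 58.0 CPM under hypoxia and 77.1, 70.1 and 73.2 CPM under normoxia, a log2 change of -0.31 ± 0.050 (adjusted p = 5.82e-06, edgeR). Neither gene had overlapping libraries.

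Since the kit does not mark strand, gene reads in the shared bases cannot be assigned to 1 of these genes. The directions were the same in exon reads (0.39 for FADS2 and -0.28 for FADS1) and in exon-exon reads (0.38 and -0.26), and all 4 values passed edgeR's test (the largest adjusted p was 6.33e-05). In intron reads FADS2 changed by 0.36 and FADS1 by -0.40 (adjusted p = 0.0105 for FADS1, edgeR). Every exon read of FADS2 was unique, while 44.8% of the exon reads and 38.04% of the exon-exon reads of FADS1 were.

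FADS1 shares far more sequence with another model. An unnamed protein-coding model, ENSCAFG00000046360, lies on the same strand (54661564 to 54677228) and overlaps FADS1 over 9060 bases. Of its exon reads 23.3% were unique, and 67.0% of its gene reads were of the intron class. It had 779, 806 and 765 exon reads under hypoxia and 910, 1023 and 802 under normoxia. Its exon reads changed by -0.29 on the log2 scale (adjusted p = 2.25e-04, edgeR), and its unique exon reads by -0.22 without passing the test (adjusted p = 0.126, edgeR). The files do not say where else a read that is not unique was placed, so the level of FADS1 is uncertain. FADS1 changed by -0.26 ± 0.068 in unique gene reads (adjusted p = 0.00140, edgeR), where it was at 28.4 ± 1.45 CPM under hypoxia and 34.0 ± 1.60 CPM under normoxia. The sum of FADS1 and the unnamed model changed by -0.25 (adjusted p = 1.10e-06, edgeR), an alternative chosen after seeing the data. Unique intron reads of FADS1 were few, at 55 to 110 a library, and changed by -0.07 (adjusted p = 0.837, edgeR).

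**Figure D3:**
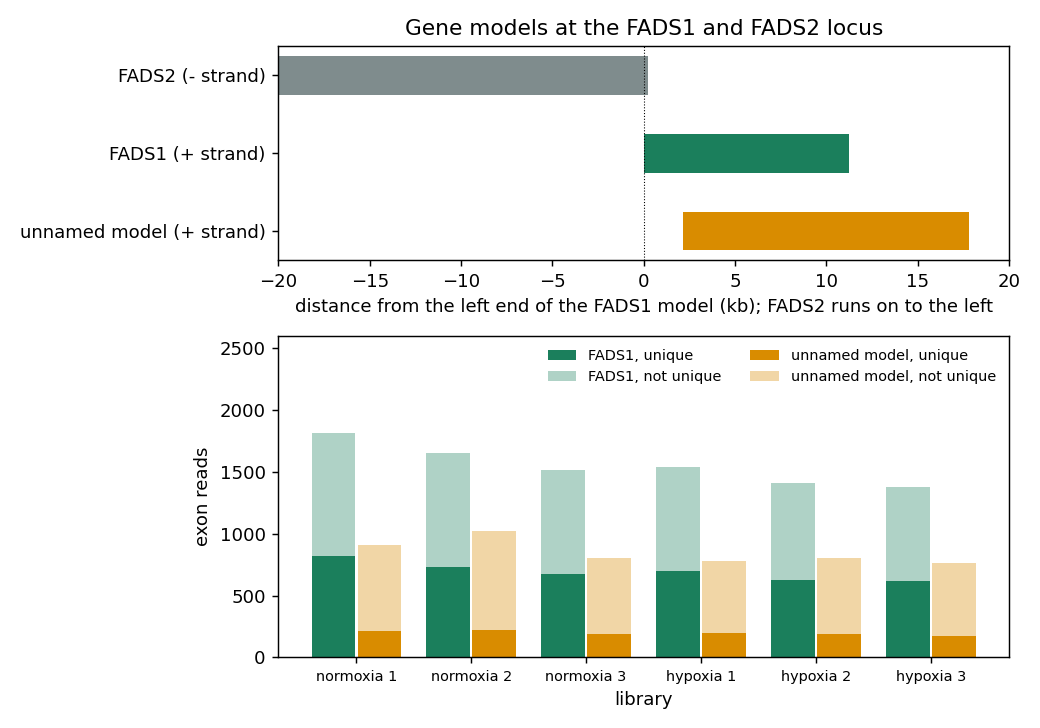
Top: the models of FADS2, FADS1 and the unnamed gene, by distance in kb from the left end of FADS1, with FADS2 running on beyond the left edge and exons not drawn. Bottom: exon reads per library, not scaled for depth, with unique reads in full colour and the others pale; unique reads are 44.2% to 45.5% of FADS1 exon reads in every library.

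Scaled by exon length, exon reads of FADS2 were 7.37, 8.24 and 7.34 times those of FADS1 in the hypoxia libraries and 4.498, 5.30 and 4.62 times in the normoxia libraries. The ratio was thus higher in each hypoxia library. On the log2 scale the FADS1 to FADS2 ratio differed by -0.67 (-2.93 ± 0.095 against -2.26 ± 0.13, n = 3 each), with p = 0.1 in a two-sided exact permutation test, the lowest value that this number of libraries allows. From exon-exon reads the difference was -0.64 and from unique exon reads -0.66. The level of the ratio depended on the reads: from unique exon reads, FADS2 was 17.0 times FADS1 under hypoxia and 10.8 times under normoxia.

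The 3 elongases changed by 0.29 at most on the log2 scale. ELOVL1, on chromosome 15 (16798370 to 16802899), acts on saturated and monounsaturated very long chains. It was at 34.0, 35.7 and 34.5 CPM under hypoxia and 28.9, 27.9 and 28.3 CPM under normoxia, a log2 change of 0.29 ± 0.063 (adjusted p = 2.24e-04, edgeR). It had the lowest level of the 10 genes, and it rose in exon (0.28), exon-exon (0.34) and intron reads (0.34).

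ELOVL6, on chromosome 32 (30224252 to 30360138), elongates palmitate to stearate, which is the substrate of SCD. It was at 173, 178 and 183 CPM under hypoxia and 193, 192 and 192 CPM under normoxia. The normoxia libraries lay close together and all above the hypoxia libraries, with a log2 change of -0.11 ± 0.036 (adjusted p = 0.0117, edgeR). The change was -0.13 in exon reads and -0.22 in exon-exon reads, while intron reads changed by -0.04 (adjusted p = 0.684, edgeR). Without hypoxia replicate 1 the call was lost (-0.09, adjusted p = 0.0834).

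ELOVL5, on chromosome 12 (20734282 to 20807739), elongates the polyunsaturated products of FADS2. Its model holds an unnamed one with 8 reads in all libraries. ELOVL5 was at 178, 177 and 182 CPM under hypoxia and 173, 166 and 166 CPM under normoxia, a log2 change of 0.09 ± 0.037 that was barely called (adjusted p = 0.0495, edgeR). Leaving out any library but normoxia replicate 1 ended the call (adjusted p = 0.0593 to 0.158), as did DESeq2 (0.0540), scaling by library size alone (0.664) and no filter on low counts (0.0981). Exon reads rose by 0.17 ± 0.040 (adjusted p = 7.35e-04, edgeR) and exon-exon reads by 0.20 ± 0.043 (adjusted p = 7.92e-05, edgeR), whereas intron reads changed by -0.045 ± 0.058 (adjusted p = 0.594, edgeR). Intron reads made up 29.4%, 32.7% and 31.2% of its gene reads in the hypoxia libraries and 35.1%, 33.1% and 35.02% in the normoxia libraries. ELOVL5 alone of the 10 genes had an intron share without overlap between the conditions (two-sided exact permutation p = 0.1, the smallest possible, and 0.857 after Benjamini-Hochberg adjustment over the 10 genes). How many of all genes had such a separation was not computed, so it is not read as particular to ELOVL5.

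SREBF1, on chromosome 5 (41663773 to 41686776), was at 271, 281 and 269 CPM under hypoxia and 264, 265 and 262 CPM under normoxia. The hypoxia libraries all lay above the normoxia libraries in these TMM-scaled values, but not when scaled by library size alone. In deposited TPM they overlapped as well, at 140.9 to 147.6 under hypoxia and 139.3 to 142.9 under normoxia. The log2 change of 0.06 ± 0.034 did not pass the test (95% interval -0.01 to 0.12, adjusted p = 0.187, edgeR). It was not called in exon (0.06), exon-exon (0.07) or intron reads (0.08), and it was -0.011 when scaled by library size alone. SREBP-1 is made as a membrane-bound precursor that must be cut to become active, a step that transcript levels do not measure. The model of cfa-mir-33b lies within SREBF1 and had no read.

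By class of reads, 6 of the 10 genes were called higher and 3 lower in exon reads, where 48.2% of 13458 tested genes were called (24.4% higher and 23.8% lower). In exon-exon reads 6 were higher and 3 lower, with 44.4% of 11288 tested genes called (22.6% and 21.8%). In intron reads 5 were called higher and 1, FADS1, lower, with 34.4% of 13858 tested genes called (18.7% and 15.7%). Unique gene reads gave 6 higher and 3 lower, with 50.3% of 15178 tested genes called. In exon, exon-exon and intron reads the median log2 change of the 10 genes was 0.20, 0.23 and 0.15, beside 0.00, 0.00 and -0.01 over all tested genes.

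**Figure D4:**
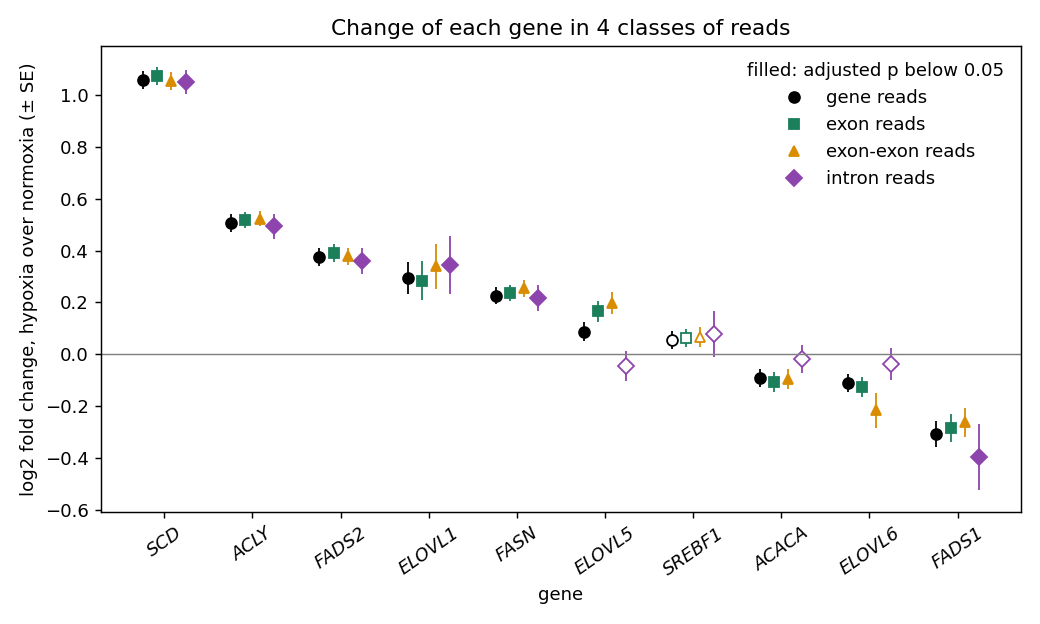
Log2 fold change (hypoxia over normoxia, ± SE) of each gene in gene, exon, exon-exon and intron reads, with filled symbols for an adjusted p below 0.05. SCD lies between 1.05 and 1.07 in all 4 classes, and ELOVL5 lies at 0.20 in exon-exon and -0.045 in intron reads.

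Other genes of the pathway were grouped in 7 lists of 69 entries, of which 57 were tested, 8 had no row of that name and 4 were below the filter. Of the 57 genes, 17 were called higher and 17 lower, and their median log2 change was -0.01. Of all tested genes, 24.5% were called higher and 24.4% lower. The counts of each list below are of few genes and are to be read beside these same shares. Scaled by library size alone, 13 were higher and 22 lower, beside 3076 and 4862 of all tested genes. In exon-exon reads 18 were higher and 11 lower, beside 22.6% and 21.8% of all tested genes.

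Among 7 genes that supply acetyl-CoA and NADPH, 2 rose and 3 fell. ACSS2, which makes acetyl-CoA from acetate, was at 215, 224 and 227 CPM under hypoxia and 126, 117 and 110.0 CPM under normoxia (log2 change 0.92 ± 0.042, adjusted p = 3.52e-18, edgeR). Its model lies within that of GSS on the other strand, and its exon-exon reads rose by 0.90. ACO1, the cytosolic aconitase, fell by 0.14 (adjusted p = 0.00109, edgeR) and by 0.10 in exon-exon reads (adjusted p = 0.0493, edgeR). It was not called by limma on log2(TPM + 1) (adjusted p = 0.0571) or log2(TPM + 0.1) (0.0568), and its model overlaps that of TOPORS. SLC25A1, the mitochondrial citrate carrier, rose by 0.12 (adjusted p = 0.0139, edgeR) and is named here after its value was seen.

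Among 5 tested genes of carboxylation and accessory factors, 1 rose and 2 fell. ACACB, the acetyl-CoA carboxylase at the mitochondrial surface whose malonyl-CoA restrains fatty acid import by CPT1, had 31.6, 35.7 and 32.2 CPM under hypoxia and 3.77, 4.03 and 4.11 CPM under normoxia. This was an 8.34-fold difference (log2 change 3.06 ± 0.096, adjusted p = 6.96e-23, edgeR), against the small fall of ACACA. Intron reads were 50.04% ± 5.41 of ACACB gene reads under normoxia and 29.7% ± 2.20 under hypoxia. The log2 change was 3.56 in exon reads, 2.32 in intron reads and 2.30 with limma on log2(TPM + 1). MID1IP1, an activator of acetyl-CoA carboxylase, fell by 0.35, and by 0.26 in exon reads (adjusted p = 0.0114, edgeR). Its model has no intron, yet 45.9% of its gene reads were of the intron class. MLYCD, which degrades malonyl-CoA, fell by 0.26, without a call in exon-exon reads (-0.25, adjusted p = 0.0944, edgeR). In mitochondrial fatty acid synthesis, a separate pathway, 2 of 4 tested genes fell and 0 rose, with MCAT at -0.46 and MECR at -0.15. MECR was not called in exon reads (adjusted p = 0.0783, edgeR) or without hypoxia replicate 1 (0.0547) or 2 (0.0566) or normoxia replicate 1 (0.0685) or 2 (0.0728), and its model overlaps that of SRSF4.

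Of 8 other tested genes of elongation, 3 rose and 2 fell. HACD3 (-0.50) and HACD1 (-0.32), dehydratases of the elongation cycle, fell and HACD2, of the same family, rose (0.37). HACD1 was not called in exon reads (-0.26, adjusted p = 0.124, edgeR), exon-exon reads (-0.14, 0.505) or without normoxia replicate 2 (-0.23, adjusted p = 0.126). The other rises, named after their values were seen, were HSD17B12 (0.31) and TECR (0.13), which carry out the reduction steps of the cycle. Of 7 tested genes of other desaturases and electron donors, 3 rose and 3 fell. CYB5A, the cytochrome b5 of the endoplasmic reticulum, was at 87.8, 83.0 and 85.5 CPM under hypoxia and 43.6, 46.1 and 46.0 CPM under normoxia (0.92 ± 0.050, adjusted p = 1.91e-16, edgeR). CYB5R3, a reductase that passes electrons to cytochrome b5, rose by 0.31, and CYB5R4 fell by 0.38. The further desaturase genes SCD5 (-0.24) and FADS6 (-0.29), named after their values were seen, fell.

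Of 10 tested genes of fatty acid uptake, binding and activation, 2 rose and 4 fell. SLC27A3, of the fatty acid transport family, rose from 15.6 ± 0.83 to 35.1 ± 2.16 CPM (1.17 ± 0.074), and the fatty acid binding protein FABP3 from 598 ± 20.6 to 933 ± 6.82 CPM (0.64 ± 0.033). The model of SLC27A3 lies within that of NPR1, and its exon-exon reads rose by 1.18. FABP4 fell by 1.00 from 1.73 ± 0.48 CPM, on 13 to 54 reads a library, and was not called without hypoxia replicate 3 (adjusted p = 0.0796) or without normoxia replicate 3 (0.104). It was also not called in exon-exon reads (-0.63, adjusted p = 0.156, edgeR) or by limma on log2(TPM + 1) (adjusted p = 0.0805) or log2(TPM + 0.1) (0.0735).

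Of 16 regulators, 6 rose and 1 fell. The fall was that of PPARGC1B (-0.60), a transcriptional coactivator named here after its value was seen. INSIG2, which holds the SREBP precursors in the endoplasmic reticulum, was at 161, 158 and 177 CPM under hypoxia and 64.8, 59.7 and 64.4 CPM under normoxia (1.39 ± 0.047, adjusted p = 6.09e-22, edgeR). Intron reads were 65.6% of its gene reads, and its exon reads rose by 1.41. INSIG1, with the same role, rose by 0.41, from 387 ± 6.89 to 513 ± 8.91 CPM. SREBF2, which encodes the sterol-related SREBP-2, rose by 0.25 ± 0.033 (adjusted p = 1.43e-07, edgeR) in gene reads and changed by 0.03 in intron reads. SCAP, the escort of the SREBP precursors, changed by -0.08 and did not pass the test (95% interval -0.18 to 0.02, adjusted p = 0.195, edgeR), but passed when scaled by library size alone (-0.14, adjusted p = 0.0143). PRKAA2, a catalytic subunit of AMPK, which inactivates acetyl-CoA carboxylase, rose by 1.04 from 3.32 ± 0.15 CPM, and by 0.82 in exon reads, 1.70 in intron reads and 0.55 with limma on log2(TPM + 1). PRKAA1, for the other catalytic subunit, is named after its value was seen. It changed by -0.17 without passing the test (adjusted p = 0.0529, edgeR). Its mean over all libraries was 29.2 CPM, against 5.08 CPM for PRKAA2. MLXIPL, the carbohydrate-responsive factor ChREBP, rose by 0.96 from 5.99 ± 0.65 CPM.

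In a list for cholesterol, which SREBP-2 mainly controls, 13 of 17 tested genes were called higher and 1 lower, and the median was 0.38. For the 10 fatty acid genes these values were 6, 3 and 0.16. Of all tested genes 24.5% were called higher and 24.4% lower, with a median of 0.00. Of the 20 entries of the cholesterol list, 3 had no row of that name. The lists were compared on the same samples and the difference between them was not tested. The largest change in the cholesterol list was that of TM7SF2 (1.14), an enzyme of sterol synthesis.

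**Figure D5:**
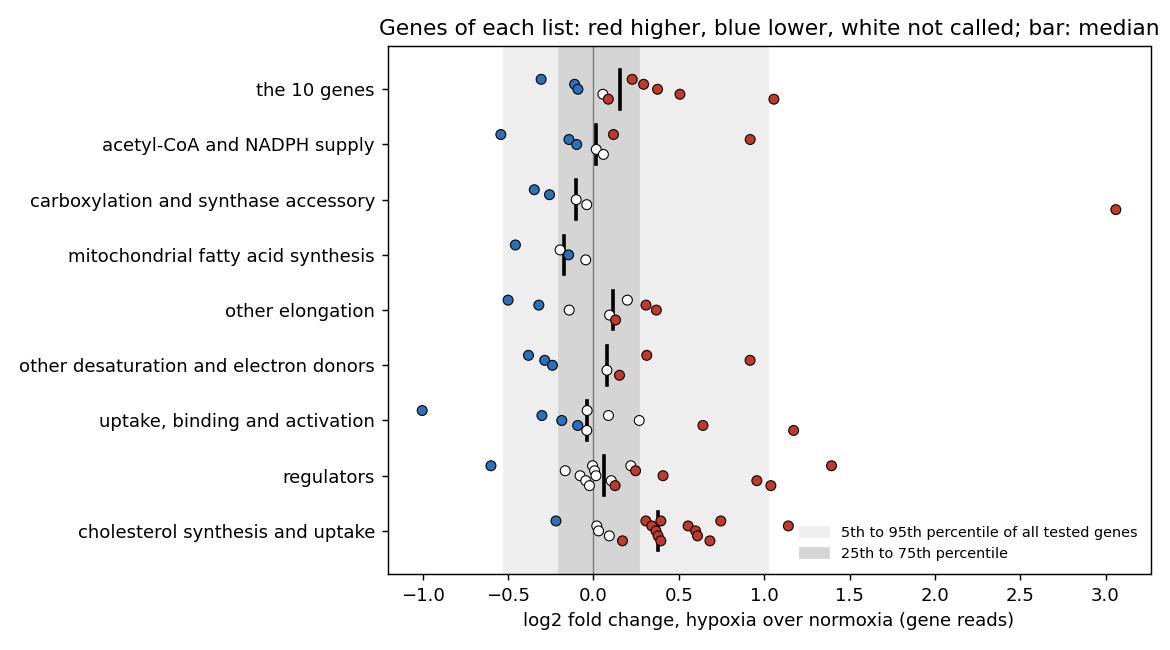
Log2 fold change (hypoxia over normoxia, gene reads) of each tested gene in the 10 genes, the 7 pathway lists and the cholesterol list, with the median of each list as a bar and percentiles of all tested genes in grey. SCD and ACACB lie to the right of the 95th percentile of all genes (1.02), as do INSIG2, SLC27A3, TM7SF2 and PRKAA2. FADS1 lies between the 5th percentile (-0.53) and the 25th (-0.20).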

How the data were processed

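Poly(A) RNA of 6 CMM10 libraries was sequenced paired-end, per the labels' protocols, from a kit of the non-directional NEBNext type, which does not mark strand. The deposited counts hold, per the file headers, total and unique reads of each gene and of its exons and exon-exon junctions, and intron reads, which equal gene minus exon reads. The build was CanFam3.1, per the submitters' processing notes, and the aligner and counter were not given in the sources used here. Deposited TPM served for levels between genes. Groups follow the labelled treatment.

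Total gene reads were filtered (filterByExpr), scaled by TMM and tested with edgeR 4.0.16 (glmQLFit, robust, glmQLFTest) over all 15397 genes, with Benjamini-Hochberg adjusted p below 0.05 called. Ratios and intron shares had exact permutation tests. Alternatives were DESeq2 1.42.0, limma 3.58.1 on log2(TPM + 1) and log2(TPM + 0.1), other scalings, no filter, unique, exon, exon-exon and intron reads, a replicate block and each library left out. Tests were checked on simulated data (R 4.3.3), with far fewer changed genes than were called here and as many up as down. That check does not bear on the choice of scaling.

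The genes and lists were chosen with earlier results of these data known. Named were the 10 genes, up to 3 called genes of largest change per list with at least 1 CPM (2 for cholesterol), and SREBF2, SCAP, INSIG1 and INSIG2. Of the genes under this rule, 2 are not reported here. Models of 5 of the 10 genes and 9 of 25 others under this rule overlap another model, whose reads they may hold.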

Additional observations from a re-analysis of the deposited data

How the results depend on the processing

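Over 17 alternatives, with 1 more for FADS1, SCD, ACLY, FADS2, FASN and ELOVL1 stayed called higher and FADS1 called lower. Unique intron reads were not among these alternatives, and FADS1 was not called in them (-0.07, adjusted p = 0.837, edgeR). The calls of ELOVL5, ACACA and ELOVL6 were lost under 9, 6 and 2 alternatives, and the cause was not tested. ELOVL5 reversed to -0.045 in intron reads, and SREBF1, never called, to -0.011 when scaled by library size alone. In intron reads 1 of the 10 genes was called lower, against 3. Leaving out 1 library gave 5 to 6 of the 10 genes higher and 1 to 3 lower, the 1 being without hypoxia replicate 1. Of all genes, 3416 to 3598 were then higher and 3361 to 3585 lower, fewer than the 3778 and 3761 with all libraries. Fewer genes were tested in exon-exon and intron reads than in gene reads. Fewer were also called lower in exon-exon reads (2459 of all genes and 11 of the pathway lists) and intron reads (2173 and 10) than in gene reads (3761 and 17). The intron share of FADS1 differed by -0.96 percentage points in all reads and 1.16 in unique reads (exact permutation p = 0.5 and 0.7). The FADS1 to FADS2 log2 ratio differed by -0.75 to -0.62 without 1 library.

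No pairing by replicate number was seen. After the mean of each condition was subtracted from log2 CPM, libraries of equal number correlated at -0.087, 0.046 and -0.053. Of 3 hypoxia libraries, 1 was closest to its own number. With so few libraries these values cannot settle whether the samples were paired. With a replicate block 6 of the 10 genes were higher and 3 lower, 3769 and 3793 of all genes and 17 and 18 of the pathway lists, and the ratio differed by -0.67 (exact sign-flip permutation p = 0.25, the smallest possible).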
